A study of Neurospora crassa with 8 samples.

Results

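The genes described here are 5 of the 9733 genes counted in *Neurospora crassa* mycelia, chosen by their identifiers as melanin pathway and tyrosinase genes. They are *per-1* (NCU03584, chromosome V), NCU06905 (chromosome VII), *tnr-1* (NCU09390, chromosome VII), NCU07823 (chromosome III) and the tyrosinase gene *T* (NCU00776, chromosome I). The choice listed NCU06905, NCU09390 and NCU07823 as pkh-1, pkh-2 and scy-1. The RefSeq annotation of the NC12 genome names NCU09390 *tnr-1* instead and gives no symbol for NCU06905 and NCU07823, so these are called by the annotation here.

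Fungi make dihydroxynaphthalene (DHN) melanin from a pentaketide that a polyketide synthase assembles. Reductases and scytalone dehydratase then convert it in alternating steps to DHN, which oxidases polymerize to the black pigment. In *Neurospora* the pathway is best known from the sexual phase, where it darkens the perithecia and the ascospores, and *per-1* mutants have pale perithecia. Tyrosinase, the copper enzyme that oxidizes tyrosine to dopaquinone, starts a separate route to melanin and is known in *Neurospora* from starved and sexually developing cultures rather than from growing mycelia.

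All samples were mycelia from liquid culture at 25°C. Strand-specific libraries of polyadenylated RNA came from wild type (*wt*, 74-OR23-1VA, FGSC 2489) that spent 24 h in darkness and then 0, 30, 60 or 120 min in light of 100 μE. Separate libraries came from strains labelled Δ*wc1* (genotype Δwc1::hyg) and Δ*wc2* (Δwc2::hyg) and from *wt*, all kept in constant light for 48 h. *wc-1* and *wc-2* encode the subunits of the White Collar Complex, the blue light receptor and transcription factor of the fungus. Each condition has 1 library and no strand information is stated for the constant light libraries. No p-value can therefore be given, and the 95% intervals below cover counting error between libraries only, not the spread between cultures.

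The strand-specific libraries hold 9725970 to 21422091 sense reads on genes and the constant light libraries 22215526 to 26210537 reads on exons. Of the sense and antisense reads on genes, 1.87 to 2.25% were antisense. The light response gene *vvd* rose 113-fold at 30 min over the dark. In the libraries labelled Δ*wc1* and Δ*wc2* it stood at 0.0354 and 0.0127 times its level in *wt*. The targeted genes were read first. *wc-2* had 141 reads in the library labelled Δ*wc2* against 605 in *wt*. Its exon lines 1 to 4 had 53, 3, 54 and 31 reads, against 230, 303, 70 and 2 in *wt*. Line 4 was thus higher than in *wt*. *wc-1* had 1290 reads in the library labelled Δ*wc1* against 332 in *wt*, which goes against the label when the exons are summed. The reads lie on exon line 2 (1287 against 244), while exon line 1 had 3 reads in the library labelled Δ*wc1* against 88 in *wt*. The 4 conidiation marker genes had at least 10 reads in every library, and of the 7 matched sexual development genes 4 to 7 did. The summed conidiation markers amounted to 112 reads per 1000000 reads (RPM) in the library labelled Δ*wc1*, 197 in that labelled Δ*wc2* and 6180 in *wt*, and to 2380, 9795, 19247 and 9389 RPM in the light series, in order of time. The summed sexual markers amounted to 269 RPM in the library labelled Δ*wc1*, 267 in that labelled Δ*wc2* and 2102 in *wt*, and to 1143, 951, 1462 and 3739 RPM in the light series, in order of time. The genes *app* and *asd-1* carry most of the sexual sums. In constant light *app* had 43335 reads in *wt*, against 817 for Δ*wc1* and 293 for Δ*wc2*. The marker *poi-2* went the other way, from 26 reads in *wt* to 283 for Δ*wc1* (ratio 12.7) and 53 for Δ*wc2* (ratio 2.41). Of the 7 sexual markers, 3 were more than 2-fold below *wt* for Δ*wc1* and 4 for Δ*wc2*, and 1 was more than 2-fold above in each. Of the 161983 conidiation marker reads of *wt* in constant light, 159799 were on *eas*. In the light series the sum did not follow all 4 markers. At 60 min the ratio to the dark was 1163 for *con-6* and 400 for *con-10*, but 0.938 for *eas* and 0.744 for *fl*. The part of these markers in the results below was not tested.

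The 5 genes fell apart by level in the light series. NCU07823 lay near the median gene and *tnr-1* in the lower part of the range. *per-1* and NCU06905 stayed at or close to the detection limit, and *T* was read almost entirely from the antisense strand. In sense RPM divided by the gene length in kb, NCU07823 had 6.89 in the dark, *tnr-1* 1.80, *per-1* 0.0109, and NCU06905 and *T* had 0. The median over the 9215 genes with a length in the annotation was 8.09. NCU07823 exceeded 46.5% of these genes and *tnr-1* exceeded 26.0%, while *per-1* exceeded 10.8%. At 60 min NCU07823 had 8.22, against a median of 7.81, and exceeded 51.1% of genes. The intervals of NCU07823 (5.47 to 8.58) and *tnr-1* (1.33 to 2.39) do not overlap, and those of *per-1*, NCU06905 and *T* do. This order between NCU07823, *tnr-1* and the others was found at all 4 times. It was not found in *wt* in constant light, where the strands are not told apart. There NCU07823 had 1.70, *tnr-1* 1.78 and *T* 1.38 exon RPM per kb. NCU07823 and *tnr-1* had 1.75 and 1.83 in the library labelled Δ*wc1*, and 4.29 and 1.75 in that labelled Δ*wc2*. Lengths are those of the NC12 gene models, introns included, while the reads were counted on NC10.

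**Figure D1:**
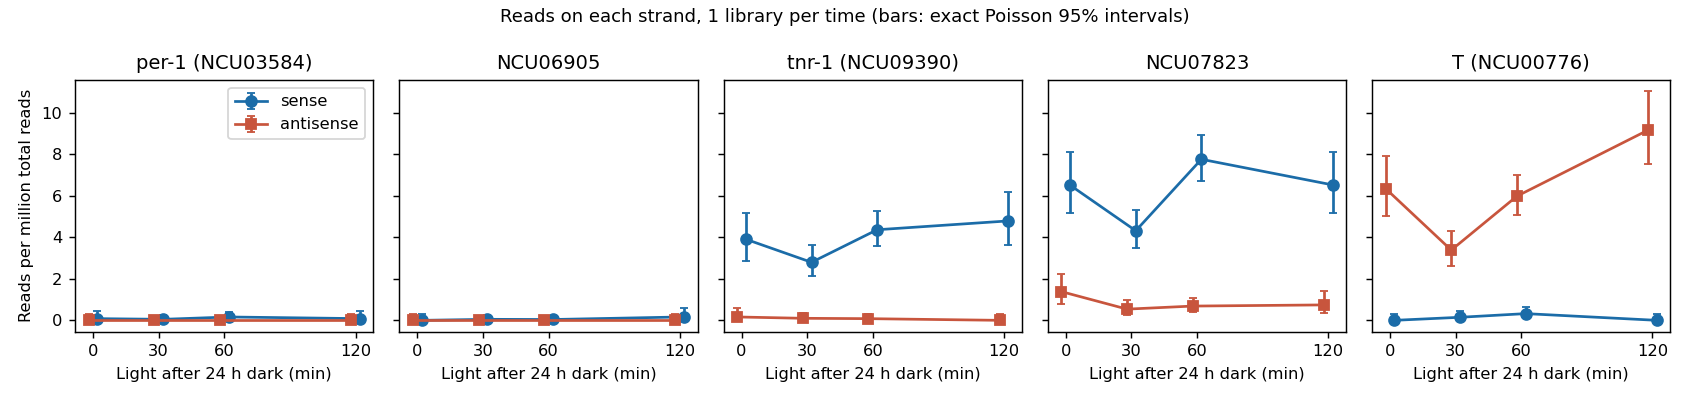
RPM (reads per 1000000 total reads, vertical axis) on the sense and the antisense strand of each gene against the minutes of light after 24 h of darkness (horizontal axis), 1 library per time, with exact Poisson 95% intervals. Sense reads of NCU07823 and tnr-1 lie between 2.79 and 7.76 RPM, per-1 and NCU06905 lie near 0 on both strands, and T has antisense reads only of any size, from 3.38 to 9.16 RPM.

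*per-1*, the polyketide synthase gene at the head of the pathway, had 1, 1, 4 and 1 sense reads at 0, 30, 60 and 120 min over a gene of 7496 bp. It had no antisense read in any of the 4 libraries. A signal of 3 reads, taken here as the smallest that can be told from 0, corresponds to 0.244, 0.147, 0.121 and 0.248 RPM in these libraries, so only the 60 min library exceeded it. The ratio of 60 min to dark was 1.99 with an interval from 0.197 to 97.8, and a change was not detectable at this depth. Across all genes, 9.58 to 11.3% had no sense read in these libraries and 14.4 to 16.4% had at most 3.

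NCU06905 had 0, 1, 1 and 2 sense reads and no antisense read in the same libraries. All values are at or below 3 reads, so no ratio is given. Of the next protein-coding genes, NCU06906 had 134, 227, 224 and 80 sense reads, and NCU06904 on the other side had no read on either strand and none in constant light.

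*tnr-1* carries the symbol used in fungi for tetrahydroxynaphthalene reductase, the enzyme that reduces the pentaketide. It had 48, 57, 108 and 58 sense reads, which is 3.90, 2.79, 4.36 and 4.79 RPM at 0, 30, 60 and 120 min. The ratio to the dark was 0.716 at 30 min (0.479 to 1.07), 1.12 at 60 min (0.788 to 1.60) and 1.23 at 120 min (0.822 to 1.84). Each of these intervals includes 1. Antisense reads numbered 2, 2, 2 and 0, which is no more than the smallest signal at any time.

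NCU07823, listed as scy-1, had the most sense reads of the group. It had 80, 88, 192 and 79 sense reads, which is 6.51, 4.31, 7.76 and 6.52 RPM. Its ratio to the dark was 0.663 at 30 min (0.484 to 0.909), 1.19 at 60 min (0.914 to 1.57) and 1.00 at 120 min (0.725 to 1.39). With scaling by total reads the 30 min library was thus lower than the dark library beyond counting error, while the other times were not. With median-of-ratios or TMM scaling, which set the libraries level on the typical gene, the 30 min ratio was 0.737 (0.538 to 1.01) or 0.742 (0.542 to 1.02), and these intervals include 1. Over the genes with at least 10 reads, the median ratio of 30 min to dark was 0.894, and 19.5% of genes had a lower ratio than NCU07823. NCU07823 and *tnr-1* were both lowest at 30 min.

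A change of more than 2-fold in either direction with at least 10 reads in the higher library was found on the sense strand at any light time for 0 of the 5 genes, against 15.9% of all genes. NCU07823 and *tnr-1* were the only members with 10 sense reads in any of the 4 libraries and so the only ones that could meet this rule. Among 2088 genes with 100 to 1000 sense reads over the 4 libraries, a depth like theirs, the share was 14.6% for the 30 min library, 10.4% for 60 min and 8.09% for 120 min. The upper bounds of their light ratios were 1.84 or lower and the lower bounds 0.479 or higher. Larger changes between these libraries are outside the intervals.

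NCU07823 also had antisense reads. They numbered 17, 11, 17 and 9 at 0, 30, 60 and 120 min, or 1.38, 0.539, 0.687 and 0.743 RPM. They made up 17.5% of the reads on the gene in the dark (Wilson 95% interval 11.2 to 26.3%), 11.1% at 30 min (6.32 to 18.8%), 8.13% at 60 min (5.14 to 12.6%) and 10.2% at 120 min (5.47 to 18.3%). As a measure of reads set on the wrong strand, genes with 10000 or more sense reads had a median antisense count of 0.0496 to 0.180% of their sense count, while the count on NCU07823 was 8.85 to 21.2% of its sense count. The ratio of antisense reads to the dark was 0.390 at 30 min (0.165 to 0.883), 0.497 at 60 min (0.238 to 1.03) and 0.537 at 120 min (0.211 to 1.27). The 30 and 60 min values pass the 2-fold rule downward, as did 2.66% and 1.66% of all genes on the antisense strand. These shares stand for 259 and 162 genes. Only 2866 and 3321 genes had at least 10 antisense reads in either library and so could meet the rule. The 60 min call ended with median-of-ratios (0.523) and TMM scaling (0.522), while the 30 min call held (0.434 and 0.437). NCU07823 was the only one of the 5 genes to pass the rule on this strand at any time, against 16.9% of all genes for either direction. Only NCU07823 and *T* had 10 antisense reads in any of these libraries and so could meet it. Both neighboring genes, NCU07822 and *mdm10*, do not overlap NCU07823 in the annotation and had 65 to 111 and 128 to 298 sense reads. Whether their transcripts extend into NCU07823 was not tested.

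**Figure D2:**
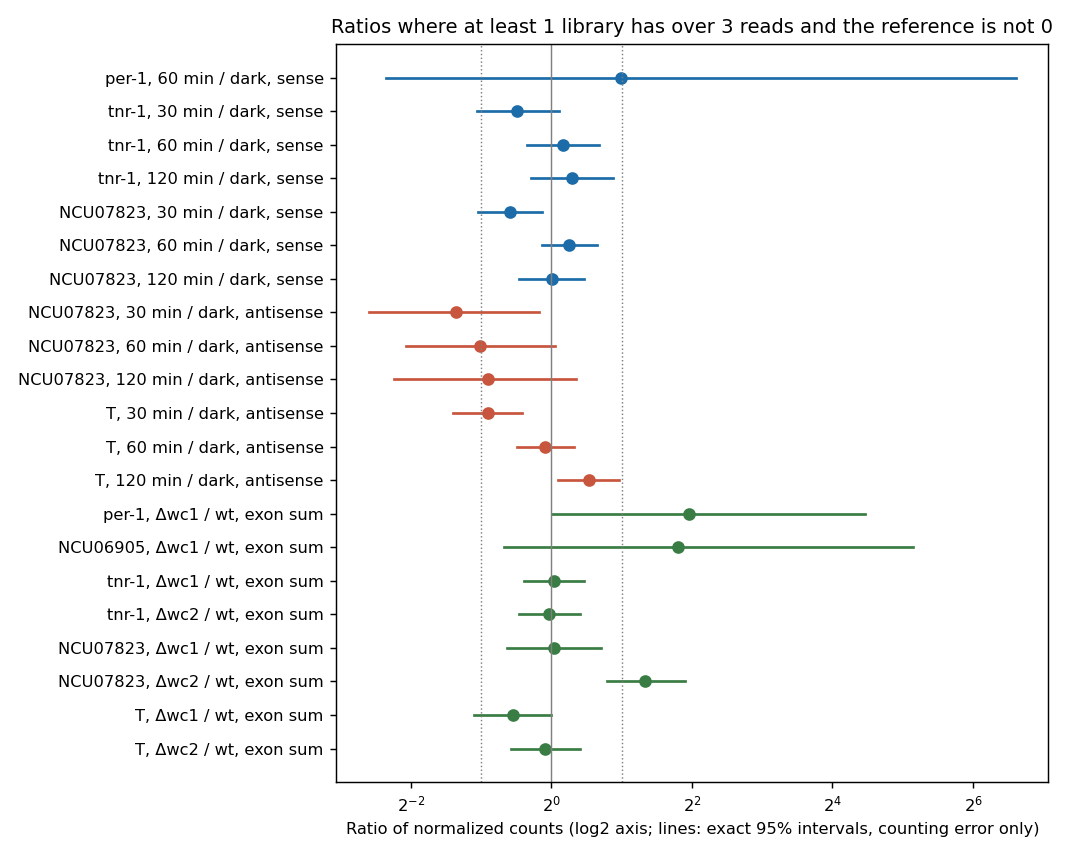
Ratio of normalized counts (horizontal log2 axis, with solid and dotted lines at 1 and at 2-fold either way) for each gene and comparison named on the vertical axis, with exact 95% intervals that cover counting error between libraries. Sense ratios of tnr-1 and NCU07823 in light lie between 0.663 and 1.23, NCU07823 stands at 2.53 in the library labelled Δwc2 over wt, and the intervals of per-1 and NCU06905 are the widest.

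*T* stood apart from the other genes by strand. Its sense count was 0, 3, 8 and 0 reads at 0, 30, 60 and 120 min, and its antisense count was 78, 69, 148 and 111 reads. Of the 417 reads on both strands in the 4 libraries, 406 were antisense (97.4%, Wilson 95% interval 95.3 to 98.5%). Sense reads were thus above the smallest signal at 60 min only, where 0.323 RPM was counted (exact Poisson interval 0.140 to 0.637). The dark library had no sense read, and the lower bound of the ratio of 60 min to dark was 0.848, so a difference was not detectable at this depth. In the dark, the antisense level of *T* per length exceeded that of 94.4% of genes.

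Antisense reads of *T* amounted to 6.34, 3.38, 5.98 and 9.16 RPM at 0, 30, 60 and 120 min. The ratio to the dark was 0.533 at 30 min (0.380 to 0.747), 0.942 at 60 min (0.712 to 1.26) and 1.44 at 120 min (1.07 to 1.95), and none passed the 2-fold rule. The 30 min library was lower and the 120 min library higher than the dark beyond counting error. Over all genes with at least 10 antisense reads in either library, the median ratio was 1.05 at 30 min and 1.28 at 120 min. The rise of *T* at 120 min was thus close to that of the typical antisense count.

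In the annotation, *T* lies wholly within the span of another protein-coding gene, NCU00777. The sense count of NCU00777 was 169, 197, 330 and 218 reads, and its antisense count was 0, 1, 1 and 2. Its ratio to the dark was 0.702 at 30 min (0.569 to 0.868), 0.970 at 60 min (0.803 to 1.17) and 1.31 at 120 min (1.07 to 1.61). The antisense count of *T* was 0.462, 0.350, 0.448 and 0.509 times the sense count of NCU00777 at 0, 30, 60 and 120 min. Both were lowest at 30 min and highest at 120 min in RPM. This order was not particular to them, as *tnr-1* had it too. Over all genes with 10 reads, the median sense ratio to the dark was 0.894, 0.955 and 1.03 at 30, 60 and 120 min. The table used gives no strand, and whether the antisense reads of *T* and the sense reads of NCU00777 come from the same transcripts was not tested. Of 52 genes that lie within another counted gene, 50 had at least 10 reads on both strands together in the dark, and for 33 of these (66.0%) the antisense count exceeded the sense count. Over all 8272 genes with this minimum the share was 7.46%.

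**Figure D3:**
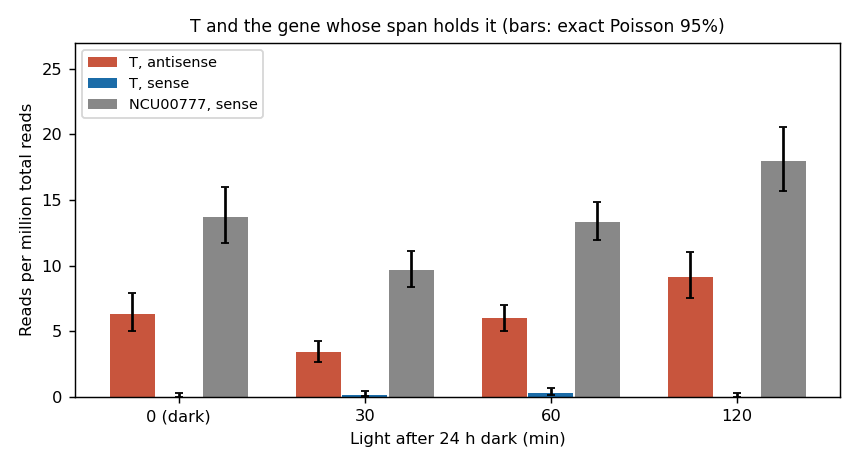
RPM (reads per 1000000 total reads, vertical axis) of T on the antisense and the sense strand and of NCU00777, the gene whose span holds T, on its sense strand, by minutes of light (horizontal axis), 1 library each, with exact Poisson 95% intervals. T antisense and NCU00777 sense are both lowest at 30 min (T antisense 3.38) and highest at 120 min (T antisense 9.16), while T sense does not exceed 0.323.

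In constant light the question is whether the genes depend on the White Collar proteins. NCU07823 was 2.53-fold higher in the library labelled Δ*wc2* than in *wt* and did not differ beyond counting error in the library labelled Δ*wc1*. *per-1* was 3.89-fold higher in the library labelled Δ*wc1*, on few reads. *tnr-1* and *T* changed by less than 2-fold in both, but the interval of *T* lay below 1 in the library labelled Δ*wc1*. The rule of 2-fold with 10 reads was met upward by 1 of the 5 genes in the library labelled Δ*wc1*, against 13.8% of all genes, and by 1 of 5 in that labelled Δ*wc2*, against 9.15%. None met it downward, against 6.74% and 7.28%. Both comparisons share the *wt* library.

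**Figure D4:**
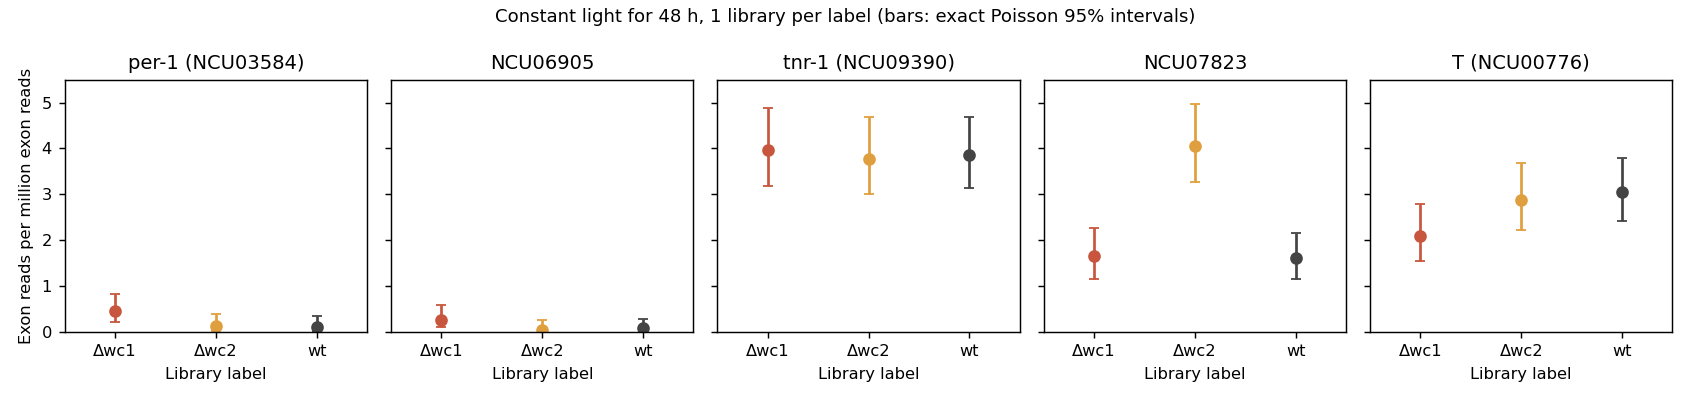
Exon RPM (reads per 1000000 exon reads, vertical axis) of each gene in the libraries labelled Δwc1, Δwc2 and wt (horizontal axis) after 48 h of constant light, 1 library each, with exact Poisson 95% intervals. NCU07823 stands at 4.05 in the library labelled Δwc2, against 1.60 in wt, tnr-1 lies between 3.78 and 3.97 in all 3, and per-1 and NCU06905 lie below 0.5.

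NCU07823 had 37 reads in the library labelled Δ*wc1*, 90 in that labelled Δ*wc2* and 42 in *wt*, or 1.65, 4.05 and 1.60 RPM. The ratio to *wt* was 2.53 for Δ*wc2* (1.73 to 3.74) and 1.03 for Δ*wc1* (0.643 to 1.64). With median-of-ratios or TMM scaling the Δ*wc2* ratio was smaller, at 2.24 (1.54 to 3.32) or 2.25 (1.54 to 3.32). Set against each other, the library labelled Δ*wc2* was 2.46-fold above that labelled Δ*wc1* (1.66 to 3.71), a change that 1.77% of all genes met in this direction. A higher count was found on each of its 3 exon lines. The lines had 16, 15 and 59 reads in the library labelled Δ*wc2* against 3, 8 and 31 in *wt*, which gave ratios of 6.29, 2.21 and 2.25. In the library labelled Δ*wc1* the lines had 5, 8 and 24 reads. The median ratio over all genes with 10 reads was 1.13 for Δ*wc2* and 1.17 for Δ*wc1*, and 94.3% of genes had a lower ratio than NCU07823 in the library labelled Δ*wc2*. Among 2941 genes with 100 to 1000 reads over the 3 libraries, 19.8% passed 2-fold in either direction in the library labelled Δ*wc2* and 22.2% in that labelled Δ*wc1*.

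*tnr-1* had 89 reads in the library labelled Δ*wc1*, 84 in that labelled Δ*wc2* and 101 in *wt*. The ratio to *wt* was 1.03 (0.765 to 1.38) for Δ*wc1* and 0.981 (0.726 to 1.32) for Δ*wc2*. Its 7 exon lines hold 3 pairs of equal or nearly equal counts, so some reads may have entered the sum more than once and its interval may be too narrow. The lines did not all follow the sum. Line 4 had 15 reads in the library labelled Δ*wc1* against 31 in *wt* (ratio 0.565, 0.283 to 1.08), and line 6 had 28 against 17 (ratio 1.92, 1.02 to 3.75). In the library labelled Δ*wc2* these lines had 24 and 17 reads.

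**Figure D5:**
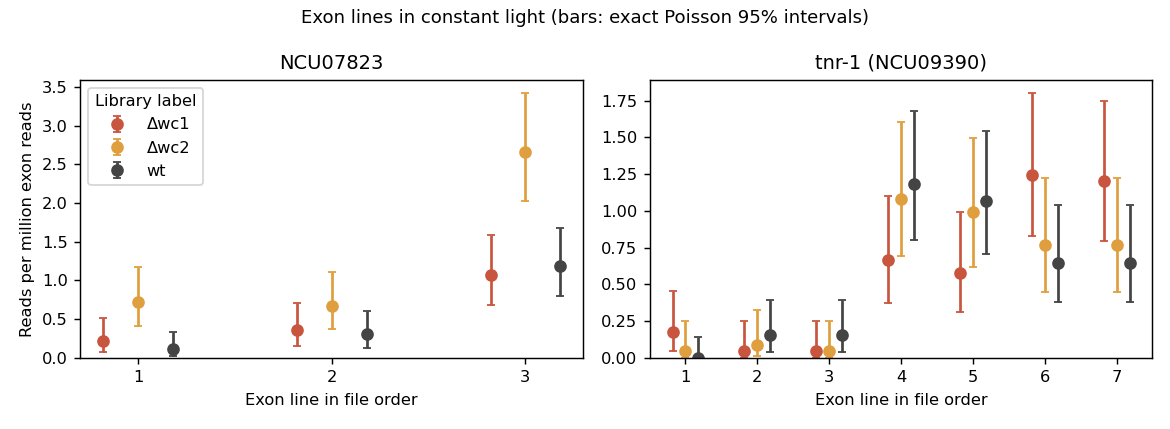
RPM (reads per 1000000 exon reads, vertical axis) on each exon line, in the order of the files (horizontal axis), of NCU07823 and tnr-1 in the libraries labelled Δwc1, Δwc2 and wt, with exact Poisson 95% intervals. All 3 lines of NCU07823 are highest in the library labelled Δwc2 (16, 15 and 59 reads), while lines 4 and 6 of tnr-1 go in opposite directions in that labelled Δwc1.

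*per-1* had 10 reads in the library labelled Δ*wc1*, 3 in that labelled Δ*wc2* and 3 in *wt*. The ratio of Δ*wc1* to *wt* was 3.89 with an interval of 1.00 to 22.0, and 7 of the 10 reads fell on exon line 2, where *wt* had 1. Without this line *per-1* had 3 reads against 2 in *wt* and no longer met the rule. With TMM scaling the ratio was 3.35 (0.861 to 18.9), an interval that includes 1. Even there *per-1* had only 0.0594 RPM per kb, against a median of 5.98 over all genes with a length. NCU06905 had 6, 1 and 2 reads in the libraries labelled Δ*wc1*, Δ*wc2* and *wt*, and its ratio of Δ*wc1* to *wt* was 3.50 (0.626 to 35.5). It missed the minimum of 10 reads.

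*T* had 47 reads in the library labelled Δ*wc1*, 64 in that labelled Δ*wc2* and 80 in *wt*. The ratio to *wt* was 0.686 (0.468 to 0.996) and 0.944 (0.669 to 1.33). With median-of-ratios or TMM scaling the Δ*wc1* ratio was 0.582 (0.397 to 0.844) or 0.590 (0.402 to 0.856). NCU00777 had 150, 207 and 160 reads in these libraries, and its ratio to *wt* was 1.09 (0.870 to 1.38) for Δ*wc1* and 1.53 (1.24 to 1.89) for Δ*wc2*. Reads on *T* were 0.313, 0.309 and 0.50 times those on NCU00777. The exon counts of these libraries hold reads from both strands. Of 69 genes with at most 3 sense and at least 50 antisense reads in each strand-specific library, 68 had at least 10 reads in the library labelled Δ*wc1*, 69 in that labelled Δ*wc2* and 69 in *wt*. Of 837 genes with at most 3 reads on either strand, 31, 9 and 13 did. Sense and antisense reads on *T* therefore cannot be told apart in constant light, and the same holds for the antisense reads on NCU07823.

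Other polyketide synthase genes were found by symbol. The 6 genes *pks-1* to *pks-6* are measured, and at 30 min 0 of them passed the 2-fold rule. At 60 and at 120 min 1 of them, *pks-6*, passed it downward, against 4.14% and 1.82% of all genes. *pks-6* had 14, 15, 9 and 5 sense reads, with ratios of 0.319 at 60 min and 0.362 at 120 min. These ratios rest on few reads and are given without counting intervals. The median ratio of the 4 with more than 3 reads was 0.900, 0.768 and 0.845 at 30, 60 and 120 min, beside 0.894, 0.955 and 1.03 over all genes with 10 reads. *pks-1* and *pks-4* had 322 and 181 sense reads in the dark, or 3.5 and 1.29 RPM per kb, against 0.0109 for *per-1*. *pks-3*, *pks-6*, *pks-5* and *pks-2* had 0.269, 0.156, 0.0101 and 0 RPM per kb. The near absence of sense reads was thus shared by *pks-2* and *pks-5* but not by the whole family.

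In constant light, 1 of the 6 passed 2-fold downward in the library labelled Δ*wc1* and 3 in that labelled Δ*wc2*, and 0 passed upward in either. Of all genes, 6.74% and 7.28% passed downward and 13.8% and 9.15% upward. The median ratio of the 6 was 0.905 and 0.560, beside 1.17 and 1.13 over all genes with 10 reads. Those past 2-fold were *pks-6* (5 and 8 reads in the libraries labelled Δ*wc1* and Δ*wc2*, against 21 in *wt*) and, in the library labelled Δ*wc2*, *pks-5* (117 against 379 reads in *wt*) and *pks-4* (102 against 286). *pks-2* and *pks-5* had 0 to 3 sense reads in each strand-specific library and 184 to 652 antisense reads, so their counts in constant light cannot be assigned to a strand either. The gene with the symbol *lacc* (NCU04528), added after its values were seen because laccases are candidates for the last step, had 49, 84, 147 and 72 sense reads at 0, 30, 60 and 120 min. It had 474, 277 and 322 reads in the libraries labelled Δ*wc1*, Δ*wc2* and *wt*, and its ratios of 1.03 to 1.72 did not pass 2-fold in any comparison.

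The genes most like a member were sought by the root mean square difference of 5 log2 ratios, namely 3 light times over dark and 2 mutants over *wt*, among 7386 genes with at least 100 reads in both sets of libraries. Only *tnr-1* and NCU07823 had enough reads. The closest to *tnr-1* were NCU03176, NCU07362 and NCU02837, at 0.0595, 0.0675 and 0.0765. In all, 420 genes lay within 0.25 of *tnr-1*, so its nearly flat pattern is common. NCU07823 had 0 genes within this distance. The closest were NCU00903, NCU09474 and NCU02757, at 0.26, 0.27 and 0.27, and NCU00903 is the direct neighbor of *wc-2* in the annotation. These distances are just past 0.25. NCU07823 had only 169 reads in constant light, and the part of counting error in its distances was not tested.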

How the data were processed

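The members and lists were chosen with earlier results of these data known. Reads of the strand-specific libraries were aligned by the authors to NC10 (Bowtie 2.1.0, up to 3 mismatches) and deposited as HTSeq counts per gene, raw and separate for each strand. Lines that name no gene hold 12.1 to 21.3% of the alignments in the sense files and were left out. The files of the libraries from constant light hold raw counts per exon line, as deposited, and were summed per gene. Mapping and counting of these are not given in the sources used here. The list of lincRNAs was not used.

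Counts were divided by the total reads stated by the study (strand-specific) or by the summed exon counts (constant light). Ratios have exact Clopper-Pearson 95% intervals, levels exact Poisson and shares Wilson intervals. A gene passed the rule at a ratio above 2 or below 0.5 with at least 10 reads in the higher library, and no pseudocount. No test was made, since each condition has 1 library. The code for ratios, intervals and calls was tested on simulated counts with known fold changes. Names, lengths and neighbors came from RefSeq (NC12), in which 9215 of 9733 counted genes and all 5 members were found. Its table holds no product names, so other pathway genes were sought by symbol only. Of 9 sexual marker symbols, 7 were matched and counted. The text names the members, the targeted genes, *vvd*, neighbors, listed genes past 2-fold and the 3 genes most like a member (pseudocount of 1 read). Other genes named were picked after their values were seen.

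Alternatives concerned normalization, minimum count, the rule, the pseudocount, the exon lines and the strand ratio. TMM factors came from edgeR 4.0.16 in R 4.3.3. Other steps used Python 3.11.15, numpy 2.4.6, pandas 2.3.3, scipy 1.17.1 and matplotlib 3.10.9.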

Additional observations from a re-analysis of the deposited data

How the results depend on the processing

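Under all alternatives run, the 93 alternative values of the 21 member ratios stayed within the 95% interval of the reported value. This says little about stability where counts are low. The scalings multiplied the ratios by 0.848 to 1.12 only, and intervals on few reads are far wider than that. The counts of members past 2-fold moved with the minimum and with the interval and not with the normalization, but single calls did change. The antisense call of NCU07823 at 60 min (0.497) ended with median-of-ratios (0.523) and TMM scaling (0.522). The interval of its sense ratio at 30 min included 1 with both. The *per-1* call in the library labelled Δ*wc1* ended without the exon line with the most reads (3 against 2 reads, ratio 1.75), and its interval included 1 under each of the 3 other scalings. Without a minimum of reads, 2 members passed in light on the sense strand (NCU06905 and *T*), 2 on the antisense strand (NCU07823 and *tnr-1*) and 2 in the library labelled Δ*wc1* (*per-1* and NCU06905), all added ones on fewer than 10 reads. With a minimum of 50 reads, 0 passed on the antisense strand and 0 in the library labelled Δ*wc1*. When the nearer bound of the interval also had to lie past 2-fold, 0 passed on the antisense strand, 0 in the library labelled Δ*wc1* and 0 in that labelled Δ*wc2*. No paired analysis was possible because each condition has 1 library, and for the same reason no library could be left out. Levels per coding length were not run, since no exon lengths of NC10 were used here. Counting the nearly equal exon lines of *tnr-1* once was chosen after seeing the data. Depth limits *per-1*, NCU06905 and the sense reads of *T*, which had 10 reads or fewer in every library.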
